A study of Mus musculus and Rattus norvegicus with 96 samples.

Results

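The Cyp2b genes encode the phenobarbital-inducible cytochromes P450 of rodent liver, enzymes that oxidise drugs and other foreign compounds and are built around a haem group. The 4 genes described here, Cyp2b10, Cyp2b9, Cyp2b13 and Cyp2b23, were taken by name from the mouse liver count table. The choice was made with earlier results of these data known. The members are 4 of the 24543 genes listed. Phenobarbital (PB) acts in hepatocytes through the constitutive androstane receptor (CAR, gene Nr1i3), a nuclear receptor that moves from the cytoplasm to the nucleus, pairs with the retinoid X receptor and binds enhancers of its target genes. Cyp2b10 is the classical mouse target of this receptor. Cyp2b9 and Cyp2b13 are known as genes of female liver that are kept low in males, and Cyp2b23 is a less studied member of the cluster.

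Liver RNA of 12 young adult male B6C3F1 mice was sequenced. Of these, 6 drank water with 600 ppm PB for 7 days and 6 drank the vehicle, water alone (Con). Each liver gave 4 preparations and so 48 libraries in 8 groups of n = 6: frozen (FR), frozen and later fixed in 70% ethanol (FR > OH), frozen and later fixed in 10% neutral buffered formalin (FR > FFPE), and fixed fresh in the same formalin (FFPE). The last 3 were embedded in paraffin and extracted with another kit than FR, and FFPE libraries were fragmented for a shorter time, so preparation, extraction and fragmentation cannot be told apart. Values are counts scaled to 1e6 of a library's total on genes (CPM), and totals ran from 4952797 (FFPE PB) to 13702672 (FR PB). Levels under 1 CPM thus rest on few reads. The replicates are separate mice. The main fit across genes took all 48 libraries as independent, although each mouse gave 4 of them. Tests within mice measure the spread of differences between preparations. Permutation tests of PB against Con mice measure the spread between mice. The hepatocyte markers Alb, Apoa1, Ttr, Cyp2e1 and Glul summed to between 20440 and 87670 CPM in every library, and their sum was highest in FR Con and lowest in FFPE PB. Its part in the differences between groups was not tested. In bulk tissue, fewer cells of a type and less RNA per cell cannot be told apart.

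All 4 genes lie on chromosome 7 of GRCm38 in a cluster of Cyp2 genes. Cyp2b10 (chr7:25897658-25926624), Cyp2b13 (chr7:26061495-26096196) and Cyp2b9 (chr7:26173409-26210660) follow each other on the plus strand. Cyp2b23 (chr7:26665227-26686430) lies further along on the minus strand, and Cyp2b19 (chr7:26757142-26772630, plus strand), a gene of skin, lies beyond it. Each of the 4 has 9 exons and a coding sequence of 1473 bases in GENCODE M21. The coding sequences of Cyp2b9 and Cyp2b13 were 92.7% identical, and that of Cyp2b10 was 87.8% identical to Cyp2b9, 88.8% to Cyp2b13 and 87.6% to Cyp2b23.

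The stretch directly before each gene start, where the general transcription machinery assembles, is shown to describe how alike the members are in it. Its part in the response to PB was not tested. The 170 bases before the start of RefSeq (GRCm38.p6) are printed 5′ to 3′ along the gene, with 2 motifs in capitals, searched on both strands: AGGTCA, the half-site that nuclear receptors bind, and CATAAAA, a variant of the TATA box.
Cyp2b10 (chr7:25897488-25897657, plus strand): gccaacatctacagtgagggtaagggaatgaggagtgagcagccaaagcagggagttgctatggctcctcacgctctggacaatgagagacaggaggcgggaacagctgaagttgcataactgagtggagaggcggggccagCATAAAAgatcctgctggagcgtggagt
Cyp2b9 (chr7:26173239-26173408, plus strand): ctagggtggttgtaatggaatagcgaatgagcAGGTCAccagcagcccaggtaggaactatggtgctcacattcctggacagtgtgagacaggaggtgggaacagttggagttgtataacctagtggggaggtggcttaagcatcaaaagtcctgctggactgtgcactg
Cyp2b13 (chr7:26061325-26061494, plus strand): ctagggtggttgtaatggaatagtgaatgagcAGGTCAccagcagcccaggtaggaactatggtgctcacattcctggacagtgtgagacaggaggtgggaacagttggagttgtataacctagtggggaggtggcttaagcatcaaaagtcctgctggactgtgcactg
Cyp2b23 (chr7:26686431-26686600, minus strand): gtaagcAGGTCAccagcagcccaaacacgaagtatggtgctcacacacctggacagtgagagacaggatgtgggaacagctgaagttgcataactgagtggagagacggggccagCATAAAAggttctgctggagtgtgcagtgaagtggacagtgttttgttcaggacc
The windows of Cyp2b9 and Cyp2b13 were the same at 169 of 170 bases, so no letter of this stretch but 1 separates these genes. Both hold AGGTCA, at −138 from the start, and lack CATAAAA. The Cyp2b10 window holds CATAAAA, at −28, and lacks AGGTCA. The Cyp2b23 window holds both, at −164 and −55. Of the windows of the same length before 32851 RefSeq starts, 9.78% hold AGGTCA and 2.52% hold CATAAAA. A match is a description of the letters and not of binding. The PB-responsive enhancer known for Cyp2b10 lies further upstream, outside these windows.

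**Figure D1:**
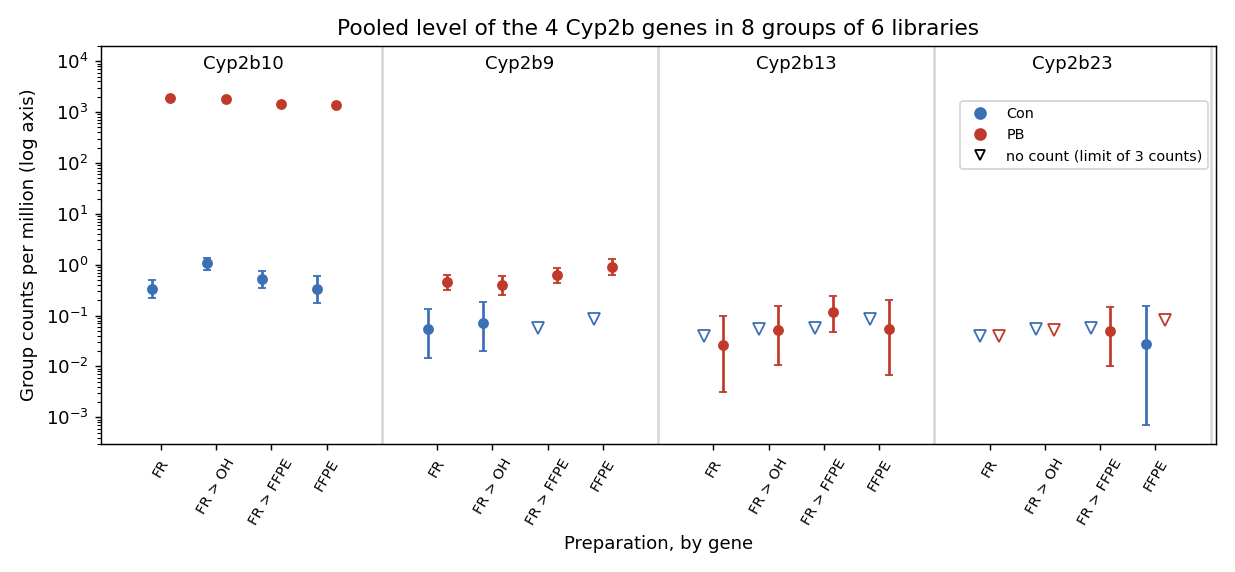
Level of the 4 genes in each group, as the summed counts of 6 libraries per 1e6 of their summed totals (log axis), with exact 95% Poisson intervals as bars. Con is blue and PB red, and open triangles mark groups with no count, drawn at the level of 3 counts. Cyp2b10 in PB mice lies between 1365 and 1891 CPM, and every other value is at most 1.06 CPM.

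Cyp2b10 was the member with a large response to PB. In FR it ranged from 0.0767 to 0.736 CPM (median 0.275) in Con mice and from 1520 to 2285 CPM (median 1869) in PB mice. In FR > OH the range was 0.396 to 2.45 CPM (median 0.991) for Con and 1415 to 2289 CPM (median 1664) for PB. FR > FFPE libraries held 0 to 0.843 CPM (median 0.548) in Con mice and 1078 to 1779 CPM (median 1485) in PB mice. In FFPE the values were 0 to 1.18 CPM (median 0.179) for Con and 1115 to 1708 CPM (median 1361) for PB. No Con library came near a PB library in any preparation. Among genes ordered by mean CPM, Cyp2b10 stood at place 72 in FR PB and at place 13101 in FR Con, and at places 65 to 71 in PB mice of the other preparations. It took 0.189% of all counts on genes in FR PB.

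The log2 fold change of PB vs. Con for Cyp2b10 was 12.40 in FR (s.e. 0.35, edgeR quasi-likelihood test with Benjamini-Hochberg adjustment over all genes tested, adjusted p = 8.5e-31). It was 10.67 in FR > OH (s.e. 0.32, adjusted p = 1.47e-29 by edgeR), 11.41 in FR > FFPE (s.e. 0.34, adjusted p = 1.04e-29 by edgeR) and 11.92 in FFPE (s.e. 0.36, adjusted p = 2.79e-29 by edgeR). Each s.e. given with edgeR was derived as the absolute log2 fold change over the square root of the F value of its test. It is an approximation and is least certain where Con counts are few or 0. This fit took the 4 libraries of a mouse as independent. In a fit to 1 preparation alone, each mouse occurs once. The edgeR adjusted p was then 2.9e-12 in FR, 8.23e-12 in FR > OH, 4.87e-13 in FR > FFPE and 4.08e-14 in FFPE. Of all genes tested, 2.00% passed the criteria in FR, 2.42% in FR > OH, 1.87% in FR > FFPE and 1.92% in FFPE, which were a change of 2-fold or more with adjusted p below 0.05. Cyp2b10 had the largest log2 fold change of all genes tested in each of the 4 preparations. The next gene was Cyp2c55 in FR (9.02) and in FR > OH (9.06), Cyp2c53-ps in FR > FFPE (8.57) and Akr1b7 in FFPE (8.57), Akr1b7 being named after its values were seen. Cyp2b10 did not owe its place among the genes tested to PB mice alone: its geometric mean count was 1.67 over the Con libraries, above the minimum of 1 set over all 48 libraries.

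The size of the ratio rested on the Con libraries. The 6 Con libraries of a preparation held 25 counts of Cyp2b10 in FR, 58 in FR > OH, 28 in FR > FFPE and 12 in FFPE. Against 142436 counts in FR PB, the ratio of group totals in CPM was 5641 (95% counting interval 3821 to 8716). It was 1684 (1302 to 2218) in FR > OH, 2789 (1929 to 4197) in FR > FFPE and 4037 (2311 to 7812) in FFPE. The interval of FR > OH lay below that of FR, and those of FR > FFPE and FFPE overlapped it. Con mouse 8C held 6 of the 12 counts in FFPE, and without it the FFPE ratio was 6920 (3179 to 18857). These intervals cover counting error only.

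Interaction terms asked whether the PB response differed between preparations. The log2 difference to FR was −1.73 for FR > OH (s.e. 0.48, adjusted p = 1.00 by edgeR, unadjusted p = 0.000711), −0.99 for FR > FFPE (s.e. 0.54, adjusted p = 1.00 by edgeR) and −0.48 for FFPE (s.e. 0.68, adjusted p = 1.00 by edgeR). In each of these 3 tests 0.00% of the genes passed in edgeR, while 305, 288 and 463 genes had an unadjusted p under 0.05, and DESeq2 and limma called 0 genes as well (unadjusted, 358, 271 and 525 for DESeq2, and 322, 225 and 520 for limma). With the mouse as a replicate block, 3 genes passed for FR > OH, and Cyp2b10 was among them (−1.74, s.e. 0.37, adjusted p = 0.0158 by edgeR). Without Con mouse 90C, the same blocked test gave −1.17 (edgeR adjusted p = 0.295), so the call rested on that mouse.

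**Figure D2:**
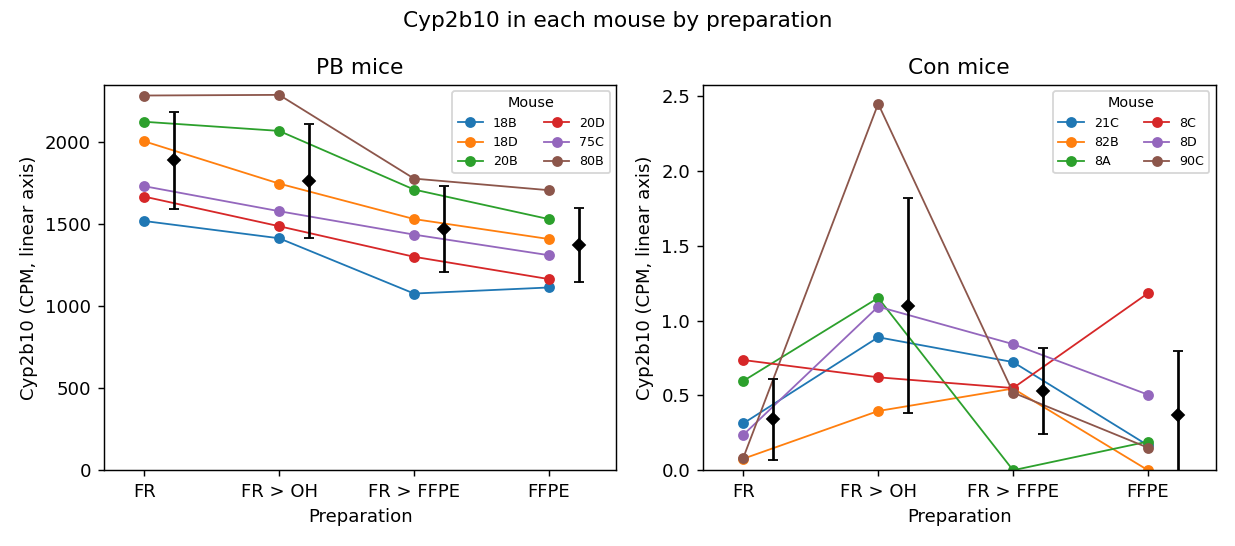
Cyp2b10 in CPM (linear axes starting at 0) by preparation, in the 6 PB mice (left) and the 6 Con mice (right, on a much smaller scale). Lines join the libraries of 1 mouse, and diamonds with bars are the mean and s.d. of 6 mice. The order of the PB mice is the same in all 4 preparations, and mouse 90C in FR > OH (2.45 CPM) stands above all other Con libraries.

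Levels of Cyp2b10 within PB mice followed the mouse. Mouse 80B was highest and mouse 18B lowest in all 4 preparations, and the order in between (20B, 18D, 75C, 20D) was also the same. Over the 6 PB mice, FR correlated with FR > OH (r = 0.971, exact permutation p = 0.00139; rho = 1, p = 0.00278), with FR > FFPE (r = 0.970, exact permutation p = 0.00278; rho = 1, p = 0.00278) and with FFPE (r = 0.981, exact permutation p = 0.00139; rho = 1, p = 0.00278). Adjusted over the 12 coefficients computed for Cyp2b10 and Cyp2b9, these permutation p-values were 0.00556. Without the 2 mice farthest from the median in FR, r was 0.9502 to 0.955 (n = 4). All libraries of a mouse carried the same D number in their names, read here as the barcode. The mouse and this number cannot be told apart. The s.d. between PB mice was 295 CPM in FR (mean 1890), 347 in FR > OH (mean 1765), 261 in FR > FFPE (mean 1473) and 225 in FFPE (mean 1374).

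In PB mice the order of the preparations was FR, FR > OH, FR > FFPE and FFPE. Per mouse, FR > OH held 93.02 ± 4.96% of the FR level (s.d., n = 6 mice), FR > FFPE 77.8 ± 4.10% and FFPE 72.7 ± 2.36%. FR > FFPE and FFPE were below FR in 6 of 6 mice, and FR > OH in 5 of 6. Of the neighbours in this order, FR > OH was above FR > FFPE in 6 of 6 mice (exact Wilcoxon signed-rank test, two-sided p = 0.0312), which is the smallest p that 6 pairs can give. FR was above FR > OH in 5 of 6 mice (exact p = 0.0625), as was FR > FFPE above FFPE (exact p = 0.0625), and neither step passed 0.05. Over the 12 neighbouring pairs tested for Cyp2b10 and Cyp2b9, the adjusted signed-rank p of each of these 3 steps was 0.188. With the authors' own scaling of CPM all 3 steps had the smallest p, and the adjusted signed-rank p was still 0.125. The adjusted test thus could not pass for these steps alone and does not decide on their order.

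In the fit across all genes these steps were under 2-fold, and Cyp2b10 was not called for a preparation vs. FR in PB mice. The log2 fold change was −0.10 for FR > OH (s.e. 0.20, adjusted p = 0.738 by edgeR; 3.81% of genes passed), −0.36 for FR > FFPE (s.e. 0.20, adjusted p = 0.122 by edgeR; 7.85% passed) and −0.46 for FFPE (s.e. 0.20, adjusted p = 0.0436 by edgeR; 16.6% passed). The same contrasts with the mouse as a replicate block had an s.e. of 0.06 each, with an edgeR adjusted p of 0.133, 4.64e-07 and 1.58e-09. A change of library size shifts all genes of a contrast nearly alike. The difference of Cyp2b10 to the median gene was therefore nearly fixed in advance under such a change. The median gene moved by 0.32 in FFPE PB and by 0.38 in FR > FFPE PB with the library size used here, and the difference of Cyp2b10 to it was −0.78 and −0.74. With the total reads as library size the median gene moved by −0.62 and −0.01, and the difference of Cyp2b10 to it was −0.79 and −0.74. The total reads were computed back from the authors' log2 CPM. With the lane as a term the difference in FFPE PB was −0.57. Cyp2b10 was called lower in FFPE PB with total reads as library size, with a log2 fold change of −1.41 (edgeR adjusted p = 1.26e-07), whereas with the lane as a term the value was −0.22 (edgeR adjusted p = 0.618).

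**Figure D3:**
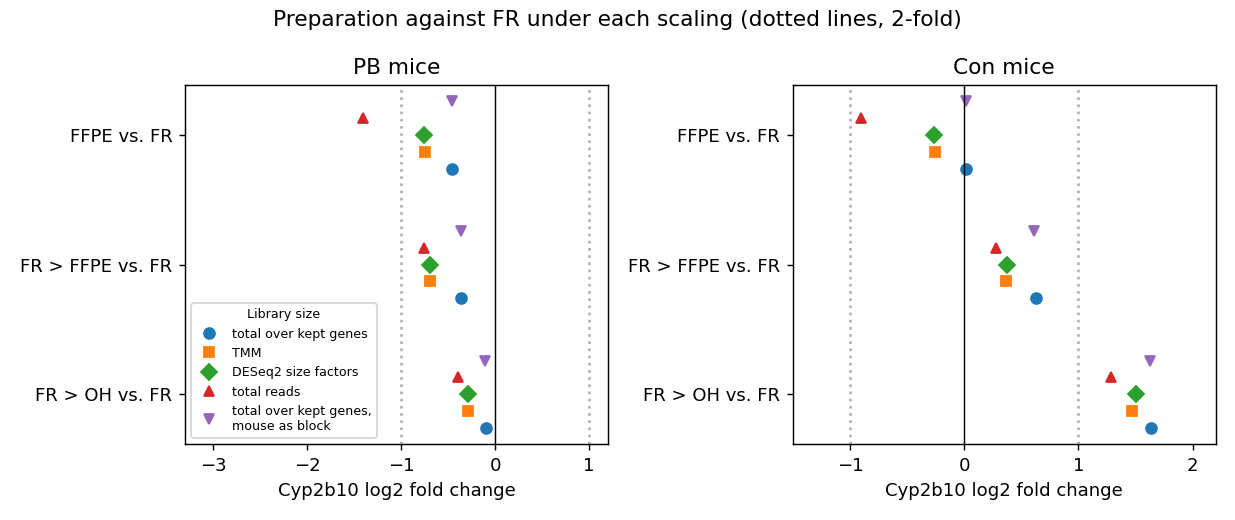
Log2 fold change of Cyp2b10 in each preparation against FR, in PB mice (left) and Con mice (right), under 5 choices of library size or model, marked by symbol. The dotted lines mark 2-fold. In PB mice all values lie below 0 and spread with the scaling (FFPE vs. FR from −0.46 to −1.41), and in Con mice FFPE vs. FR lies on either side of 0.

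In Con mice Cyp2b10 was near the limit of detection. Its mean was 0.340 ± 0.272 CPM in FR, 1.10 ± 0.72 in FR > OH, 0.530 ± 0.289 in FR > FFPE and 0.366 ± 0.433 in FFPE (s.d., n = 6). The count per library was 1 to 9 in FR, 4 to 20 in FR > OH, 0 to 9 in FR > FFPE and 0 to 6 in FFPE. FR > OH vs. FR was called, with a log2 fold change of 1.63 (s.e. 0.43, adjusted p = 0.00201 by edgeR), in a contrast where 4.55% of genes passed. Mouse 90C carried much of this difference, with 20 counts in FR > OH and 1 in FR. Without it the log2 fold change was 1.06 (edgeR adjusted p = 0.0595) and the call was lost. FR > OH was above FR in 5 of 6 Con mice. FR > FFPE vs. FR gave 0.63 (s.e. 0.50, adjusted p = 0.309 by edgeR; 5.42% of genes passed) and FFPE vs. FR 0.02 (s.e. 0.62, adjusted p = 0.984 by edgeR; 13.3% passed), and none of the neighbouring preparations in Con mice differed by the signed-rank test (smallest exact p = 0.0938, adjusted 0.225).

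Con libraries shared sequencing lanes with PB libraries, as read from the number in the library names. This reading puts 9 or 10 libraries on a lane where the methods state 8, so the lanes are uncertain. The Con libraries of a lane held 12 counts of Cyp2b10 on lane 1 beside 32280 in its PB libraries, 25 beside 60009 on lane 2 and 28 beside 99898 on lane 3. FR > OH Con was on lanes 4 and 5, with 22 counts beside 88949 and 36 beside 102153. Lanes 4 and 5 held 3 Con libraries each, and lanes 1 to 3 held 6 each. FR Con was all on lane 2, so lane and preparation cannot be told apart for FR > OH vs. FR in Con mice. The part of shared lanes in the Con counts was not tested.

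Cyp2b9 was low in every library and was higher in PB than in Con mice over the 4 preparations together. In FR the PB libraries ranged from 0 to 1.42 CPM (median 0.324) and 5 of 6 Con libraries had no count, the other, from mouse 21C, holding 4 counts (0.313 CPM). In FR > OH the PB libraries ranged from 0.0867 to 1.29 CPM (median 0.271), against 1 count each in 4 Con libraries and none in the other 2. PB libraries held 0.101 to 1.69 CPM (median 0.542) in FR > FFPE and 0 to 3.70 CPM (median 0.253) in FFPE, and no Con library of either held a count. Groups overlapped in FR, in FR > OH and in FFPE, where 2 PB libraries were also at 0, and did not overlap in FR > FFPE. The share of all genes without overlap was not computed.

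Summed over its 4 preparations, each PB mouse held 4 to 71 counts of Cyp2b9 and each Con mouse 0 to 5. The mean was 0.561 ± 0.650 CPM in PB and 0.0384 ± 0.0562 CPM in Con mice (s.d., n = 6 mice), a difference of 0.522 CPM (exact permutation test over mice, two-sided p = 0.00433, where the smallest p is 0.00216). By preparation, the exact permutation p was 0.0411 in FR, 0.0238 in FR > OH, 0.00216 in FR > FFPE and 0.0606 in FFPE. The total of 128 counts in 24 PB libraries against 8 in 24 Con libraries was a ratio of 15.2 in CPM (95% counting interval 7.48 to 35.9). Against the 3 counts that a group at 0 allows, the PB level was 11.1-fold higher in FR > FFPE and 10.7-fold higher in FFPE. These values leave out the counting error of the PB counts, so they are not lower bounds. Without PB mouse 20D they were 7.37-fold and 3.55-fold, and the ratio over all preparations was 8.13 (3.86 to 19.7). Without Con mouse 21C, which held 5 of the 8 Con counts, that ratio was 34.3 (11.5 to 169). Cyp2b9 did not pass the minimum count. Without that filter edgeR called it in FR > FFPE (log2 fold change 5.59, s.e. 1.45, adjusted p = 0.0148 by edgeR; 1.54% of 18841 genes passed) and in FFPE (6.09, s.e. 1.61, adjusted p = 0.0187 by edgeR; 1.59% passed). It was not called in FR (2.80, s.e. 1.02, adjusted p = 0.115 by edgeR; 1.62% passed) or in FR > OH (2.28, s.e. 1.09, adjusted p = 0.238 by edgeR; 1.95% passed). No Con library of FR > FFPE or FFPE held a count, so the fold changes there and their s.e. are not well defined.

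**Figure D4:**
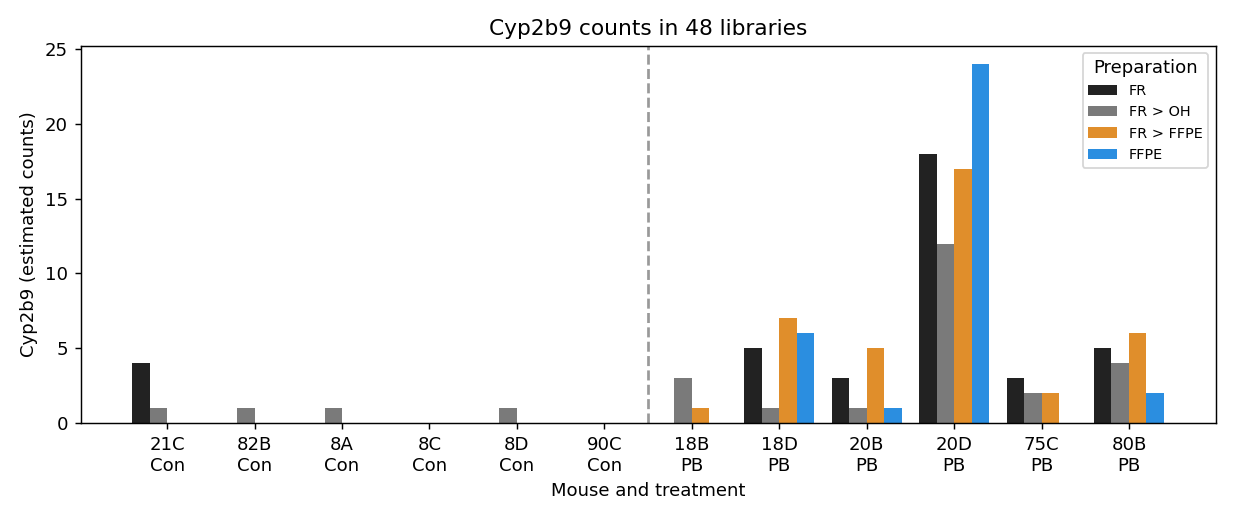
Estimated counts of Cyp2b9 in all 48 libraries, by mouse (horizontal axis, Con left and PB right of the dashed line) and preparation (bar colour), as single libraries without error bars. Mouse 20D is highest in all 4 preparations, with 12 to 24 counts, and no other library exceeds 7.

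A single PB mouse, 20D, held 71 of the 128 counts (55.5%), and it was highest in all 4 preparations, with 18 counts in FR, 12 in FR > OH, 17 in FR > FFPE and 24 in FFPE. Without 20D the difference between PB and Con mice was 0.266 CPM (exact permutation p = 0.00433), and in FR alone it was 0.206 CPM (exact permutation p = 0.0541). The order of mice for Cyp2b9 was not that for Cyp2b10, in which 20D was 5th of the 6 PB mice. FR correlated with FR > FFPE over the 6 PB mice (r = 0.977, exact permutation p = 0.00417; rho = 0.943, p = 0.0167) and with FFPE (r = 0.972, exact permutation p = 0.00556; rho = 0.899, p = 0.0278). For FR > OH the relation did not pass (r = 0.910, exact permutation p = 0.0986; rho = 0.429, p = 0.419). Adjusted over the 12 coefficients, these permutation p-values were 0.00714 and 0.0222, 0.00833 and 0.0333, and 0.108 and 0.419. Without the 2 mice farthest from the median in FR, which include 20D, r was 0.747, 0.778 and 0.416 (n = 4), on a few counts each. Of 17 other female-predominant liver genes, 20D was highest of the PB mice in Cyp2a4, Fmo2, Cux2, A1bg and Hao2. It was lowest in Cyp17a1 and Cyp39a1 and 5th in Cyp2c40, Cyp3a16 and Sult3a1. All these genes were chosen after their values were seen. Summed over all 17 genes, the level in 20D was 31.2 CPM, the lowest of the PB mice (up to 68.5 CPM in 20B). This sum was carried largely by Cyp17a1 and Cyp39a1, at 3.87 and 11.3 CPM in 20D and up to 24.6 and 25.2 CPM in the other PB mice. Cyp2a4, A1bg and Hao2 stood at 0.430, 0.156 and 0.623 CPM in 20D, so the sum does not weigh the 17 genes alike.

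Cyp2b13 was detected in PB mice at levels of 1 to a few counts. All 24 Con libraries were at 0, which allows a level of up to 0.0138 CPM over them together. The PB libraries held 14 counts in all, 2 in FR, 3 in FR > OH, 7 in FR > FFPE and 2 in FFPE, in 10 of 24 libraries. Each of the 6 PB mice had 1 to 4 counts over its preparations, so the mice of both treatments did not overlap (exact permutation test over mice, two-sided p = 0.00216, the smallest it can give). This p is unadjusted and rests on 14 counts, and the share of all genes without overlap was not computed. Set against 3 counts in Con, the PB level was 4.43-fold higher over all preparations. This value leaves out the counting error of the 14 PB counts, so it is not a lower bound. Within a preparation the exact permutation p was 0.455 in FR, 0.182 in FR > OH, 0.0606 in FR > FFPE and 1 in FFPE, and edgeR without the filter did not call it (smallest edgeR adjusted p = 0.111, in FR > FFPE).

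The counts of Cyp2b13 lie in a family where transcripts share sequence. Of the stretches of 50 bases in the Cyp2b13 transcript, the length of a read, 8.0% occur letter for letter in Cyp2b10 and 10.8% in Cyp2b9. For Cyp2b9 the share found in Cyp2b10 was 0.547%. The PB libraries held 383289 counts of Cyp2b10 beside the 14 of Cyp2b13 and 128 of Cyp2b9. The authors divided shared reads among transcripts by expectation maximization, so small counts of both genes are uncertain, and the part of shared reads in them was not tested. The mouse with most Cyp2b9, 20D, had 1 count of Cyp2b13.

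Cyp2b23 was not detectable at this depth in most libraries. It had 3 counts in PB mice, 1 each in the FR > FFPE libraries of 18B, 20B and 80B, and 1 count in Con mice, in the FFPE library of 90C. The other 44 libraries were at 0. The ratio of PB to Con was 2.85 in CPM with a counting interval of 0.229 to 150 (exact permutation test over mice, p = 0.545). Its level in FR was at most 0.0402 CPM in Con and 0.0398 CPM in PB mice, the limit of 3 counts. Cyp2b19 had 1 count in all, in FR PB.

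Compared per kilobase of transcript, Cyp2b10 stood at 986 CPM per kb in FR PB, against 0.241 for Cyp2b9 and 0.0146 for Cyp2b13. In FR Con the level was 0.178 CPM per kb for Cyp2b10 and 0.0278 for Cyp2b9. In FR PB, Cyp2b10 thus stood above Cyp2b9. The 2 counts of Cyp2b13 there (0.0266 CPM) and the 0 of Cyp2b23 are both under the limit of 3 counts (0.0398 CPM), so neither can be separated from 0 in FR or ordered.

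The other Cyp2 genes of the cluster gave a mixed picture. Of 11 such genes, 9 were listed and 5 were tested. For PB vs. Con edgeR called 3 of the 5 in FR, 2 in FR > OH, 2 in FR > FFPE and 3 in FFPE. Limma called 1, 2, 1 and 3. Of all genes, 1.87 to 2.42% passed in edgeR. Cyp2a5, a coumarin hydroxylase, rose from 36.9 to 113 CPM (median 73.8) in FR Con to 502 to 1111 CPM (median 688) in FR PB, with a log2 fold change of 3.37 (s.e. 0.35, adjusted p = 6.38e-10 by edgeR), and from 3.23 to 3.89 in the other preparations. Cyp2g1, an olfactory P450, rose from a mean of 0.134 to 0.770 CPM in FR (2.41, s.e. 0.45, adjusted p = 0.000205 by edgeR) and was called in all 4 preparations. Cyp2a22 rose from a mean of 0.127 to 0.636 CPM (2.22, s.e. 0.60, adjusted p = 0.0121 by edgeR) and was called in FR and FFPE. In Con mice Cyp2g1 and Cyp2a22 had libraries at 0 CPM in FR > OH and in FFPE. Their calls thus rest on few Con counts, and PB libraries helped them pass the minimum count. Cyp2a12, a steroid hydroxylase, was not called (0.44, s.e. 0.12, adjusted p = 0.00886 by edgeR, under 2-fold), nor was Cyp2f2, a P450 of lung and liver at a median of 755 CPM in FR Con and 736 CPM in FR PB (−0.10, s.e. 0.15, adjusted p = 0.775 by edgeR). Cyp2a4, which is nearly identical to Cyp2a5, and Cyp2s1 did not pass the minimum count and had means under 0.5 CPM in all groups. Cyp2t4 was at 0 in all libraries.

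Of 17 regulators of CAR, 0 were called for PB vs. Con in any preparation by edgeR, DESeq2 or limma (5 to 8 had an unadjusted p under 0.05 in edgeR, median log2 fold change −0.03 in FR, against 0.00 over all genes). Among all genes 1.87 to 2.42% passed, so a count of 0 is near the background. On the adjusted p alone, 4 regulators passed in FR (Hnf4a, Ncoa2, Nr1i2 and Rxra, each under 2-fold and named after their values were seen). Nr1i3 itself, named after its values were seen, was at 15.0 to 42.1 CPM in FR Con and 20.8 to 24.9 CPM in FR PB (−0.05, s.e. 0.25, adjusted p = 0.943 by edgeR). Of 8 genes that supply electrons or haem to P450 enzymes, 2 rose in each preparation by edgeR: Por, the P450 reductase, from a mean of 49.3 to 257 CPM in FR (2.38, s.e. 0.27, adjusted p = 8.2e-09 by edgeR), and Cyb5a, cytochrome b5, from 417 to 1063 CPM (1.35, s.e. 0.11, adjusted p = 4.93e-13 by edgeR). The other 6 (Alad, Alas1, Cyb5r3, Fech, Hmox1 and Uros) were not called. Of 23 other known PB targets, 20 rose and 0 fell in each preparation by edgeR, against the same 1.87 to 2.42% of all genes, and limma called 17 in FR, 18 in FR > OH and FR > FFPE and 20 in FFPE. The 23 genes had a median log2 fold change of 2.93 to 3.29. This list was drawn up with earlier results of these data known. Its largest changes in FR were those of Cyp2c55 (9.02), Gsta1 (6.36) and Gstm3 (6.14), a P450 and 2 glutathione transferases. Gsta1 was at 0 to 0.956 CPM (median 0.0307) in FR Con, so PB libraries helped it pass the minimum count.

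In FR, 0 of the 5 female-predominant genes and 0 of the 15 male-predominant genes tested were called by edgeR, DESeq2 or limma (1 and 6 had an unadjusted p under 0.05 in edgeR), where 2.00% of all genes passed in edgeR. In FR > OH, where 2.42% passed, 1 of each rose in edgeR, named after their values were seen, Prom1 (2.17, adjusted p = 0.0144 by edgeR) and Ugt2b1 (1.05, adjusted p = 1.34e-06 by edgeR). In FR > OH limma called 0 of the female-predominant and 2 of the male-predominant genes. The other 12 female-predominant genes listed did not pass the minimum count.

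The genes whose pattern over the 48 libraries was most like that of Cyp2b10, by Pearson correlation of log2(CPM + 1) among 12287 genes, were Cyp2c55 (r = 0.995), Cyp2c53-ps (r = 0.990) and Gstm3 (r = 0.985). For Cyp2b9 they were Nqo2 (0.704), Galm (0.681) and Afmid (0.673), for Cyp2b13 Pusl1 (0.558), Wee1 (0.542) and Fignl1 (0.542), and for Cyp2b23 Gm10400 (0.496), Mdm1 (0.490) and Cd33 (0.470). The libraries share mice, lanes and the treatment, and the last 2 sets rest on 14 and 4 counts. In counts this sparse, the weak correlations of Cyp2b9, Cyp2b13 and Cyp2b23 are no finding.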

How the data were processed

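The authors extracted total RNA, depleted ribosomal RNA, sequenced paired reads (base calls by CASAVA 1.8.2 per the labels), aligned them to GRCm38 with STAR 2.5.3a and used Partek's expectation maximization to assign reads to RefSeq transcripts. The deposited estimated counts per gene are 92% whole numbers and were rounded here. A second deposited table holds log2 CPM and served as an alternative only. The paper states that counts were divided by the library size. That divisor was computed back here from the counts and the log2 CPM. It was above the total on genes in every library and is read here as the total reads. Columns of AML12 cells, also estimated counts deposited per gene, were used for the 4 genes only, and rat tables were not used.

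Genes with a geometric mean above 1 count (offset 1e-04) were kept, 13370 of 24543, as the authors did. edgeR 4.0.16 (R 4.3.3) was fitted to 48 libraries and 8 group means with the total over kept genes as library size. Cyp2b10 passed, and Cyp2b9, Cyp2b13 and Cyp2b23 did not. Those were compared by exact permutation tests over 6 against 6 mice, chosen after their counts were seen. The p-values of these permutation tests are unadjusted. Preparations were compared within mice by exact signed-rank tests. Alternatives used TMM, DESeq2 1.42.0, limma 3.58.1, total reads, no filter, lane, and the mouse as a block. The pairs come from the same animals: deviations from group means over 7952 genes had a median correlation of 0.703 within a mouse, where 72 of 72 pairs exceeded 0.1, and −0.124 between mice. No pair of libraries was identical. Steps were tested on simulated data. Sequences came from RefSeq (GRCm38.p6) and GENCODE M21.

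The members and lists were chosen with earlier results of these data known. Beside the members, the genes named are the other Cyp2 genes of the cluster, the 3 largest changes among called genes of each list in FR, and the 3 genes most correlated with each member; others are marked as chosen after their values were seen.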

Additional observations from a re-analysis of the deposited data

Results flagged for a closer look

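In groups of 6 libraries with at least 10 counts, 12 groups were tested for a library far from the others (Dixon's ratio above 0.625), a test that flags about 1 in 20 groups by chance. In all, 4 values stood out. Con mouse 90C was highest for Cyp2b10 in FR > OH, at 2.45 CPM. PB mouse 20D was highest for Cyp2b9 in FR (1.42 CPM), in FR > OH (1.29 CPM) and in FFPE (3.70 CPM). These are libraries of 1 animal and carry the same D number, read as the barcode.

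The PB response of Cyp2b10 differed between FR > OH and FR by the interaction test with the mouse as a block (log2 difference −1.74, edgeR adjusted p = 0.0158). It was not called without the block, nor with the block but without mouse 90C.

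AML12 cells, a mouse hepatocyte line read on a targeted panel (TempO-Seq) after brief exposure to formalin, were outside the comparisons. Cyp2b10 reached 7.63 CPM in 1 of 3 libraries at 0.03% formalin (4 counts, against a limit of 5.72 CPM for 3 counts in that library), and the other 2 held 7 and 1 counts. The 3 vehicle libraries held 0, 0 and 1 counts, at most 0.491 CPM. Libraries at 0.006% held 0 to 1 counts and those at 0.1% formalin 1 to 4. Cyp2b9, Cyp2b13 and Cyp2b23 were at 0 in all 12 libraries.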

How the results depend on the processing

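PB vs. Con for Cyp2b10 stayed called in all 35 alternative results, with log2 fold changes of 10.34 to 14.54, the highest with limma in FFPE. These count each setting once per preparation, and the setting on the adjusted p alone kept the main fit. FR > OH vs. FR in Con mice stayed called except with limma on the authors' log2 CPM (1.58, adjusted p = 0.505) and without mouse 90C (1.06, edgeR adjusted p = 0.0595; chosen after seeing the data), and leaving out 21C or 90C, the only mice left out, gave 1.66 and 1.06. FFPE vs. FR in Con mice was −0.25 with TMM, −0.26 with DESeq2, −0.91 with total reads and −3.001 with limma, so it has no fixed sign. With limma FR > FFPE vs. FR in Con mice was −1.65 and the interactions were 0.90 (FR > FFPE) and 1.60 (FFPE), and the cause was not tested. FFPE vs. FR in PB mice passed with total reads (−1.41) and on the adjusted p alone (−0.46), but not with the lane as a term (−0.22, edgeR adjusted p = 0.618) or with limma (−1.41, adjusted p = 0.481). With the mouse as a replicate block the interaction of FR > OH was −1.74 (edgeR adjusted p = 0.0158), and the block changed no other call of Cyp2b10. A block could not be fitted for PB vs. Con, since each mouse had 1 treatment. The lane term could be fitted for 7 of the 13 comparisons. Without the filter 2 members were called in place of 1 in FR > FFPE and in FFPE. Of the neighbouring preparations of Cyp2b10, 1 pair passed 0.05 before adjustment, and 3 did with the authors' CPM. For Cyp2b9 the exact test missed 0.05 in FR without 20D (p = 0.0541) and in FR > OH without 21C (p = 0.0519), both left out after seeing the data. Leaving out either mouse, the difference was 0.206 to 0.452 CPM in FR and 0.159 to 0.343 CPM in FR > OH. The ratios of PB to Con were also computed without each mouse, after seeing the data. At 0.0138 CPM over the 24 Con libraries, 3 counts are the limit of detection.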
